A study of Homo sapiens with 5 samples.

Results

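Peaks of IRF3 and Smad3 at the genes of small structural RNAs are described here, for the 5 libraries of a ChIP-seq series in BT549 cells. A peak was taken when it lay within 1 kb of a RefSeq gene of biotype rRNA, snRNA, tRNA, snoRNA, scRNA, Y_RNA, vault_RNA, RNase_P_RNA or RNase_MRP_RNA, and histone genes were left out as subjects. In all, 712 of 19372 peaks met this rule. The RefSeq table held 1814 such genes on the assembled chromosomes, of which 181 had a peak in at least 1 library and 57 had one in all 5.

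BT549 is a basal-like breast cancer line, and the cells carried by lentivirus either constitutively active Smad3 (caSmad3) or an HA control. Smad3 was precipitated from caSmad3 cells transfected with polyI:C, a synthetic double-stranded RNA, without TGF-beta. It was also precipitated from HA cells given 1 ng/ml TGF-beta for 1.5 h after either polyI:C or mock transfection. IRF3 was precipitated from caSmad3 cells and from HA cells, both transfected with polyI:C and given no TGF-beta. Each of these groups is 1 library, so no difference has a replicate check and none was tested. In the comparison of Smad3 between caSmad3 and HA cells, active Smad3 and the lack of TGF-beta cannot be told apart, nor can factor and TGF-beta between Smad3 and IRF3 in HA cells. IRF3 is a transcription factor that double-stranded RNA activates, and Smad3 is a signal-driven factor downstream of TGF-beta.

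The genes studied are read by 3 nuclear RNA polymerases. RNA polymerase I copies the 45S gene, whose transcript is cut into 18S, 5.8S and 28S rRNA. RNA polymerase II copies most spliceosomal snRNA genes (U1, U2, U4, U5, U11, U12 and U4atac), the U7 gene and the U3, U8 and U13 snoRNA genes, from compact promoters with a proximal sequence element and often an octamer farther out. RNA polymerase III copies 5S rRNA, tRNA, U6, U6atac, 7SK, 7SL, Y, vault, RNase P and RNase MRP RNA, while most other human snoRNAs are cut from introns of host genes.

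The promoter table used here held windows for protein-coding and lncRNA genes and for 0 of the 1814 RNA genes. Sequence beside the RNA genes could therefore be read only where a neighbour starts close by. The 4 stretches below each touch or face an RNA gene with a peak, and each holds a proximal sequence element core, an octamer or TATAAA. Stretches before POLDIP3 (beside RNU12), GSTA4 (RN7SK), SNHG1 (SNORD25), POLR3E (TRL-AAG2-4) and TMEM259 (RNU6-2) were also read. Those also lie beside RNA genes with a peak, but they held none of these elements and are not shown. The stretches shown are thus not a sample of all that could be read. Each is the 250 bases before the start of a neighbouring gene (RefSeq, GRCh38.p14), 5′ to 3′ on that neighbour's strand. In the first, chr12:120291939-120292188, plus strand, before SIRT4, the RNU4-2 gene of U4 snRNA ends 35 bases below the first base. Capitals mark a proximal sequence element core on the opposite strand (ACC, then 8 bases, then AANG), 46 bases from the RNA gene, and an octamer (ATGCAAAT) 222 bases from it.
SIRT4 side of RNU4-2: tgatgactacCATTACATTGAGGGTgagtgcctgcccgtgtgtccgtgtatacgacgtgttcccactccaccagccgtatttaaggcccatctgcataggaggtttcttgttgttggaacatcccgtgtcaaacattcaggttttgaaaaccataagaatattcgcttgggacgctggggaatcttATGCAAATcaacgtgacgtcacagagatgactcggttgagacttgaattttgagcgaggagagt
In the second, chr12:6943772-6944021, plus strand, before C12orf57, capitals mark the RNU7-1 gene of U7 snRNA itself, which fills positions 45 to 107. A TATAAA match on the opposite strand at positions 10 to 15, left in lower case, lies 30 bases from it.
C12orf57 side, with RNU7-1: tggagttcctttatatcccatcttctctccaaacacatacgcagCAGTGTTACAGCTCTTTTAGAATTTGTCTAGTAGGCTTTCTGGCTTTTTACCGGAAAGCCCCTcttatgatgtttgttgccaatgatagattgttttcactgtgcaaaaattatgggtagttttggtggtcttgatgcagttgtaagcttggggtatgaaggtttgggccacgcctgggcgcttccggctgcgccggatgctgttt
In the third, chr14:20343385-20343634, plus strand, before PARP2, the first 27 bases belong to RPPH1, the RNase P RNA gene, and capitals mark an octamer 90 bases from it. The palindrome GGCGCC, a known Smad motif, is at positions 132 to 137, in lower case.
PARP2 side of RPPH1: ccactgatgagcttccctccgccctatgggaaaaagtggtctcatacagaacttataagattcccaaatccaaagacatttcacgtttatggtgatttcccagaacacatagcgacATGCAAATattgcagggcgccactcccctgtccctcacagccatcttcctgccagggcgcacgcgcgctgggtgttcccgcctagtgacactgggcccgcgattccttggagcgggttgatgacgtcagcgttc
In the fourth, chr9:35658042-35658291, plus strand, before CCDC107, capitals mark a TATAAA match on the opposite strand 26 bases from RMRP, the RNase MRP RNA gene, and an octamer 208 bases from it.
CCDC107 side of RMRP: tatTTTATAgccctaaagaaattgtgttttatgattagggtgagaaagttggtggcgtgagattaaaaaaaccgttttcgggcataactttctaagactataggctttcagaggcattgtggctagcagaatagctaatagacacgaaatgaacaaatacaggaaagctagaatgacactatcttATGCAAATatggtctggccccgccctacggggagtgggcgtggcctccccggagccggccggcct

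These stretches were covered unequally. The RNU4-2 stretch lay under a peak over 187 of its 250 bases for Smad3 in caSmad3 cells, 163 in HA cells after polyI:C and 0 after mock transfection. For IRF3 it was covered over 76 bases in caSmad3 cells and 0 in HA cells. The RNU7-1 stretch was covered over all 250 bases in each library except Smad3 after mock transfection, where 127 were covered. At RPPH1, peaks of IRF3 covered 48 bases in caSmad3 cells and 180 in HA cells, and no Smad3 peak reached the stretch. The RMRP stretch lay under no peak in any library, although it holds both motifs. A match is a description of letters and does not mark a bound site.

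Over all classes, peaks near the RNA genes took a larger share of the shorter lists. They numbered 164 of 6041 peaks for Smad3 in caSmad3 cells (2.71%, exact Clopper-Pearson 95% interval 2.32% to 3.16%), 93 of 786 in HA cells after polyI:C (11.8%, 9.66% to 14.3%) and 76 of 353 after mock transfection (21.5%, 17.4% to 26.2%). For IRF3 they numbered 207 of 8067 in caSmad3 cells (2.57%, 2.23% to 2.93%) and 172 of 4125 in HA cells (4.17%, 3.58% to 4.83%). The number of such peaks thus moved less between libraries than the length of the lists did. These intervals cover counting error only, and sequencing depth is unknown.

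The peaks were also wide. Their median width was 321.5 bases for Smad3 in caSmad3 cells, 469 in HA cells after polyI:C and 470 after mock transfection, against 176, 144 and 144 bases for all other peaks of the same lists. For IRF3 it was 384 bases in caSmad3 cells and 406 in HA cells, against 213 and 181 bases for the other peaks. Of the 20 widest peaks of a list, the RNA genes held 10, 16 and 17 for Smad3 in that order, and 5 and 6 for IRF3 in caSmad3 and HA cells. Width is the only property of a peak in these files beside its position.

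Split by polymerase, the peaks followed different courses. Polymerase I genes, the 45S copies, held 37 peaks for Smad3 in caSmad3 cells, 27 in HA cells after polyI:C and 28 after mock transfection, and 41 and 35 for IRF3 in caSmad3 and HA cells. Polymerase II genes held 77, 44 and 33 peaks for Smad3 and 89 and 80 for IRF3, in the same order. Of these, 33, 3 and 2 for Smad3 and 37 and 34 for IRF3 were nearest to named snoRNA genes other than U3, U8 and U13. Most of those snoRNA genes lie inside host genes. Polymerase III genes held 20, 3 and 1 for Smad3 and 47 and 25 for IRF3. The remaining 30, 19, 14, 30 and 32 peaks lay at snRNA genes that RefSeq leaves without a name, most of them in the U2 cluster described below.
As shares of the peaks near RNA genes, polymerase I made up 22.6%, 29.0% and 36.8% for Smad3 and 19.8% and 20.3% for IRF3. Polymerase III made up 12.2%, 3.23% and 1.32% for Smad3 and 22.7% and 14.5% for IRF3.

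Counted by gene, 129 of the 1814 RNA genes had a peak for Smad3 in caSmad3 cells, 69 in HA cells after polyI:C and 58 after mock transfection. For IRF3 158 had one in caSmad3 cells and 132 in HA cells. As background, among 19862 protein-coding genes the share that had a peak within 1 kb was 15.7%, 1.87% and 0.649% for Smad3 and 34.6% and 19.1% for IRF3 in the same order. All RNA genes together stood at 7.11%, 3.80% and 3.20% for Smad3 and 8.71% and 7.28% for IRF3, below the background in both caSmad3 libraries and in IRF3 of HA cells and above it in both Smad3 libraries of HA cells. MicroRNA genes, another class of short RNA genes, stood at 3.45%, 0.523% and 0.261% for Smad3 and 6.12% and 3.76% for IRF3. The gene counts rest in part on neighbours: with peaks near a protein-coding gene end left out, 84 RNA genes remained counted for Smad3 in caSmad3 cells, 92 for IRF3 in caSmad3 cells and 78 for IRF3 in HA cells.

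**Figure D1:**
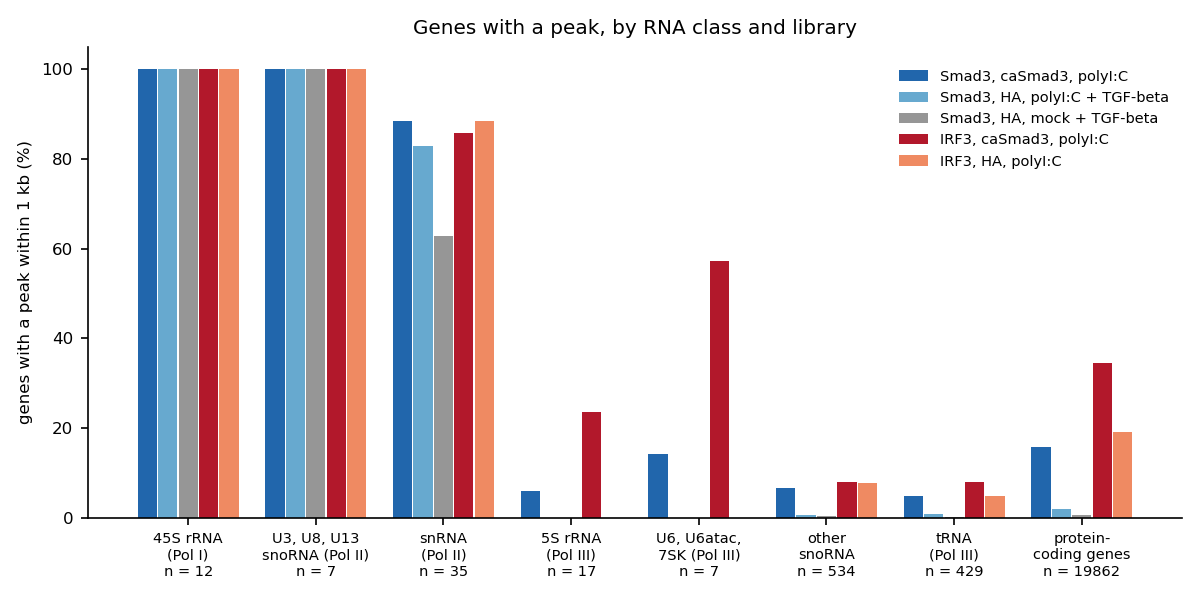
Genes with a peak within 1 kb, in percent of each RNA class (n under each name) and of protein-coding genes, as 1 bar per library. The 45S and U3, U8 and U13 genes stand at 100% in every library, the Pol II snRNA genes between 62.9% and 88.6%, and tRNA and other snoRNA genes under 8% in every library.

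In every library, most genes of snRNAs made by polymerase II had a peak, and the fewest had one after mock transfection. Of 35 such genes, 31 had a peak for Smad3 in caSmad3 cells, 29 in HA cells after polyI:C and 22 after mock transfection, and 30 and 31 had one for IRF3 in caSmad3 and HA cells. The 22 genes of the mock library had a peak in all 5 libraries, and RNVU1-1, RNVU1-3 and RNVU1-17, variants of U1 on chromosome 1, had none in any. The peaks sat on the genes rather than beside them: the gene centre itself was covered at 27, 25 and 17 genes for Smad3 and at 28 and 28 for IRF3. At 500 bases from the centre on the higher-coordinate side the covered share was 14.3%, 11.4% and 8.57% of genes for Smad3 and 17.1% and 14.3% for IRF3. Only 5 of the 32 genes with a peak had a protein-coding gene end within 1 kb (C12orf57, POLDIP3, SIRT4, TAF12 or WDR74).

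Single genes of the major and minor spliceosomes show how widths varied. RNU1-2, a U1 gene (U1 pairs with the 5′ splice site), had a peak of 1446 bases for Smad3 in caSmad3 cells, 1033 bases in HA cells after polyI:C and 826 bases after mock transfection. For IRF3 its peak had 1061 bases in caSmad3 cells and 877 bases in HA cells. RNU12, the U12 gene of the minor spliceosome, had 778, 685 and 442 bases for Smad3 and 652 and 636 bases for IRF3. RNU11, its partner U11, had 817, 799 and 700 bases for Smad3 and 683 and 657 bases for IRF3. At these genes the caSmad3 library of Smad3 gave the widest peak. RNU7-1, whose RNA acts in histone mRNA 3′ end processing, had 565, 539 and 224 bases for Smad3 and 518 and 603 bases for IRF3, so here the widest was that of IRF3 in HA cells. Its mock peak missed the gene by 17 bases, while those of the other 4 libraries overlapped it. RNU4ATAC, the U4atac gene, had 531 bases for Smad3 in caSmad3 cells, 356 bases in HA cells after polyI:C and no peak after mock transfection, and 477 and 392 bases for IRF3. RNU5D-1, a U5 gene, likewise had 855 and 279 bases and no mock peak for Smad3, against 344 and 157 bases for IRF3.

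Across the 22 genes with a peak in all 5 libraries, Smad3 in caSmad3 cells gave the widest peak at 19 and Smad3 after mock transfection the narrowest at 17. Median widths at these genes were 783.5 bases for Smad3 in caSmad3 cells, 622 in HA cells after polyI:C and 411.5 after mock transfection, and 538 and 582.5 for IRF3 in caSmad3 and HA cells. The peak was wider after polyI:C than after mock transfection at 21 of 22, and wider in caSmad3 cells than in HA cells after polyI:C at 21 of 22. Between IRF3 libraries it was wider in caSmad3 cells at 12 of 22. Only the widest peak of a gene was compared, and some genes had several. In caSmad3 cells RNU1-1 had 4 for IRF3 and 2 for Smad3, while RNU4-1 had 1 and 2. A narrower widest peak is therefore not a measure of less cover. Copies of U1, U2 and U4 are nearly identical, so the authors' alignment could have placed reads of one copy at another, and values at single copies are uncertain. The peaks of all other genes in these lists were also narrower in the HA libraries of Smad3 (medians given above), and how far list-wide width enters these orders was not tested.

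**Figure D2:**
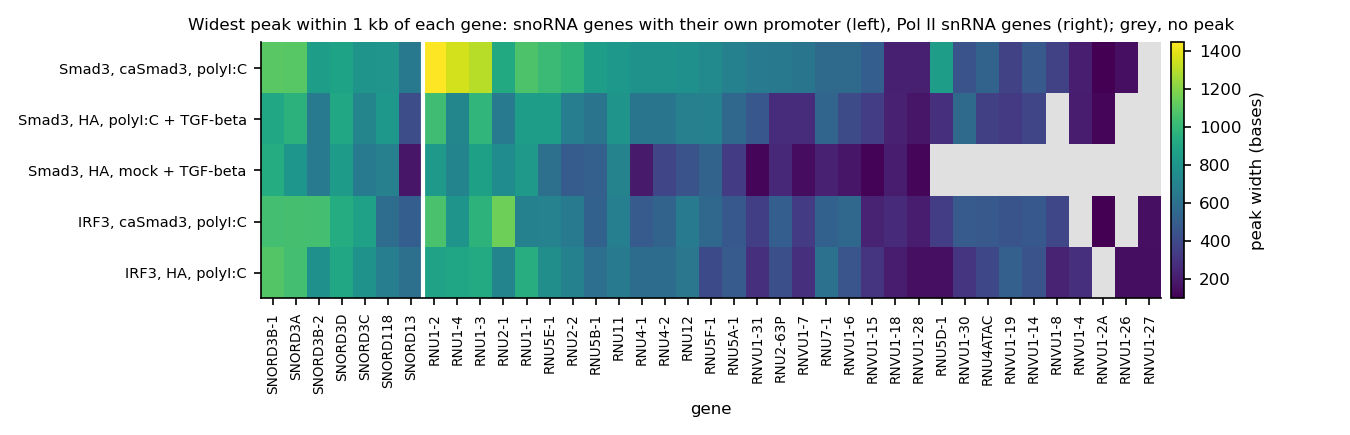
Width in bases (colour) of the widest peak within 1 kb of each U3, U8 and U13 gene (left block) and each Pol II snRNA gene with a peak in any library (right block), 1 row per library. Grey cells have no peak: they gather in the mock row of Smad3, and the brightest cells are RNU1-2, RNU1-3 and RNU1-4 for Smad3 in caSmad3 cells.

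A cluster of U2-length genes on chromosome 17 was occupied throughout. RNU2-1, the U2 gene (U2 pairs with the branch point), and 13 unnamed snRNA genes of 189 to 192 bases lie at chr17:43233790-43368087. All 14 had a peak for Smad3 in caSmad3 cells and in HA cells after polyI:C, 13 had one after mock transfection, and all 14 had one in both IRF3 libraries. RNU2-1 had a widest peak of 920, 650 and 756 bases for Smad3 and 1151 and 709 bases for IRF3. The widest peak of the cluster was 1124, 813 and 813 bases for Smad3 and 1270 and 1199 bases for IRF3. Over all 79 unnamed snRNA genes, those outside the cluster included, 16, 15 and 14 had a peak for Smad3 and 17 and 16 for IRF3. Repeats of a cluster share reads, so its genes do not count as separate sites.

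The snoRNA genes with their own promoters were occupied in every library. The 5 U3 genes SNORD3A, SNORD3B-1, SNORD3B-2, SNORD3C and SNORD3D, the U8 gene SNORD118 and the U13 gene SNORD13 all had a peak over the gene centre in all 5 libraries. U3, U8 and U13 snoRNAs act in rRNA processing. SNORD3A had 1097, 966 and 807 bases for Smad3 in caSmad3 cells, HA cells after polyI:C and HA cells after mock transfection, and 1047 and 1043 bases for IRF3 in caSmad3 and HA cells. SNORD118 had 804, 819 and 688 bases for Smad3 and 580 and 678 bases for IRF3. SNORD13 had 646, 417 and 183 bases for Smad3 and 500 and 598 bases for IRF3. SNORD13 thus had the narrowest mock peak of the 7 genes, and SNORD3B-1, with 932 bases, the widest. The 5 U3 genes lie on chromosome 17 as near-identical copies, which carries the same uncertainty as for U1.

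**Figure D3:**
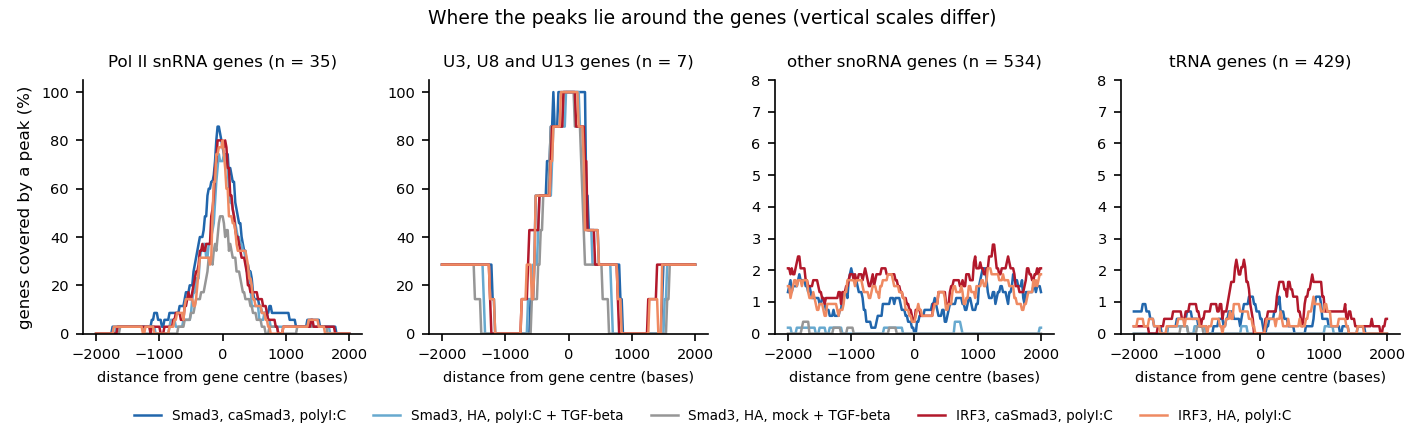
Percent of genes covered by a peak (vertical axis) against distance from the gene centre in bases (horizontal axis, by genome coordinate), 1 line per library. The cover of Pol II snRNA genes is highest within 80 bases of the centre (48.6% to 85.7%) and 48.6% to 80.0% at the centre itself. U3, U8 and U13 genes stand at 100% at the centre, while other snoRNA and tRNA genes stay under 3% at every distance, with 0% to 0.466% at the centre.

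Other snoRNA genes, most of them inside host genes, had peaks at shares below the protein-coding rate given above. These shares were above the microRNA rate, but not clearly so in every library. The exact interval held the microRNA share for IRF3 in caSmad3 cells (5.73% to 10.5%, against 6.12%). It also held it for Smad3 in HA cells after polyI:C (0.116% to 1.63%, against 0.523%) and mock transfection (0.0454% to 1.35%, against 0.261%). After mock transfection the interval also held the protein-coding share of 0.649%. The protein-coding rate counts peaks within 1 kb of the whole gene, while the median length of these snoRNA genes is 94 bases. Of 534, 35 had a peak for Smad3 in caSmad3 cells (6.55%), 3 in HA cells after polyI:C (0.562%) and 2 after mock transfection (0.375%). For IRF3 42 had one in caSmad3 cells (7.87%) and 41 in HA cells (7.68%). Peaks overlapped the gene itself at 2, 0 and 0 genes for Smad3 and at 5 and 3 for IRF3. The 64 genes with a protein-coding gene end within 1 kb had a peak more often than the other 470: 31.3%, 4.69% and 1.56% against 3.19%, 0% and 0.213% for Smad3, and 37.5% and 37.5% against 3.83% and 3.62% for IRF3.

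SNORD12C, beside ZNFX1 and the only one of the 534 with a peak in all 5 libraries, had 537, 282 and 119 bases for Smad3 and 568 and 495 bases for IRF3, at 12 to 251 bases from the gene. SNORD25 to SNORD28, 4 box C/D guides within the lncRNA host SNHG1, shared 1 peak of 290 bases for Smad3 in caSmad3 cells, and of 694 and 459 bases for IRF3, with no peak in the HA libraries of Smad3. SNORD43, beside the ribosomal protein gene RPL3, had 318 and 99 bases for Smad3 in caSmad3 cells and in HA cells after polyI:C, none after mock transfection, and 481 and 467 bases for IRF3. SNORD104 was overlapped by a peak of 303 bases for Smad3 in caSmad3 cells and by peaks of 697 and 607 bases for IRF3. Of 652 snoRNA genes that RefSeq leaves unnamed, 1, 0 and 0 had a peak for Smad3 and 2 and 2 for IRF3.

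The 45S genes carried the widest of these peaks. Of the 5 named 45S copies in RefSeq, 3 lie on the assembled chromosome 21 (RNA45SN1, RNA45SN2 and RNA45SN3), and all 12 genes of these copies (45S, 18S, 5.8S and 28S) had a peak in all 5 libraries. The widest peak at a 45S copy had 1897 bases for Smad3 in caSmad3 cells, 1891 in HA cells after polyI:C and 1809 after mock transfection, and 1963 and 1936 bases for IRF3. It lay over the 18S part in each case. These copies are nearly identical, so the authors' alignment could have placed reads of one copy at another, and they are given as a range and not as replicates.

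Along the gene, mature parts and spacers differed. The 18S part was covered over 97.8% to 100% of its bases for Smad3 in caSmad3 cells, 93.9% to 100% in HA cells after polyI:C and 91.8% to 96.8% after mock transfection, and over 100% and 98.2% to 100% for IRF3 in caSmad3 and HA cells. The 5.8S part was covered in full in every library and copy. The 28S part had medians of 55.8%, 52.6% and 46.5% for Smad3 and 68.4% and 60.9% for IRF3, in separate blocks at like positions in the 5 libraries.
The stretch before 18S, which holds the 5′ external transcribed spacer, differed most: its median cover was 44.0%, 9.64% and 11.8% for Smad3 and 58.1% and 40.3% for IRF3. Over the 3 copies this cover ranged over 37.1% to 44.6%, 9.44% to 16.7% and 10.8% to 16.1% for Smad3, and over 52.2% to 60.3% and 34.5% to 40.3% for IRF3. It therefore separated both caSmad3 libraries and IRF3 in HA cells from the HA libraries of Smad3. List length splits the libraries in the same way. Smad3 in caSmad3 cells had 6041 peaks, and IRF3 had 8067 in caSmad3 cells and 4125 in HA cells. The HA libraries of Smad3 had 786 and 353. The part of list length in this cover was not tested. Between 28S and the end of the gene no base was covered except for IRF3 in caSmad3 cells, with a median of 8.59%. Peaks also lay between the gene copies, too far from them to count as near RNA genes, so they stand among the other peaks. They numbered 10 for Smad3 in caSmad3 cells, 7 in HA cells after polyI:C and 9 after mock transfection. For IRF3 they numbered 31 in caSmad3 cells and 17 in HA cells. The widest had 1369, 1159 and 889 bases for Smad3 and 1910 and 1259 bases for IRF3, in the same order. The use of an input control is not given in the sources used here, and whether an input library would list the same blocks was not tested.

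**Figure D4:**
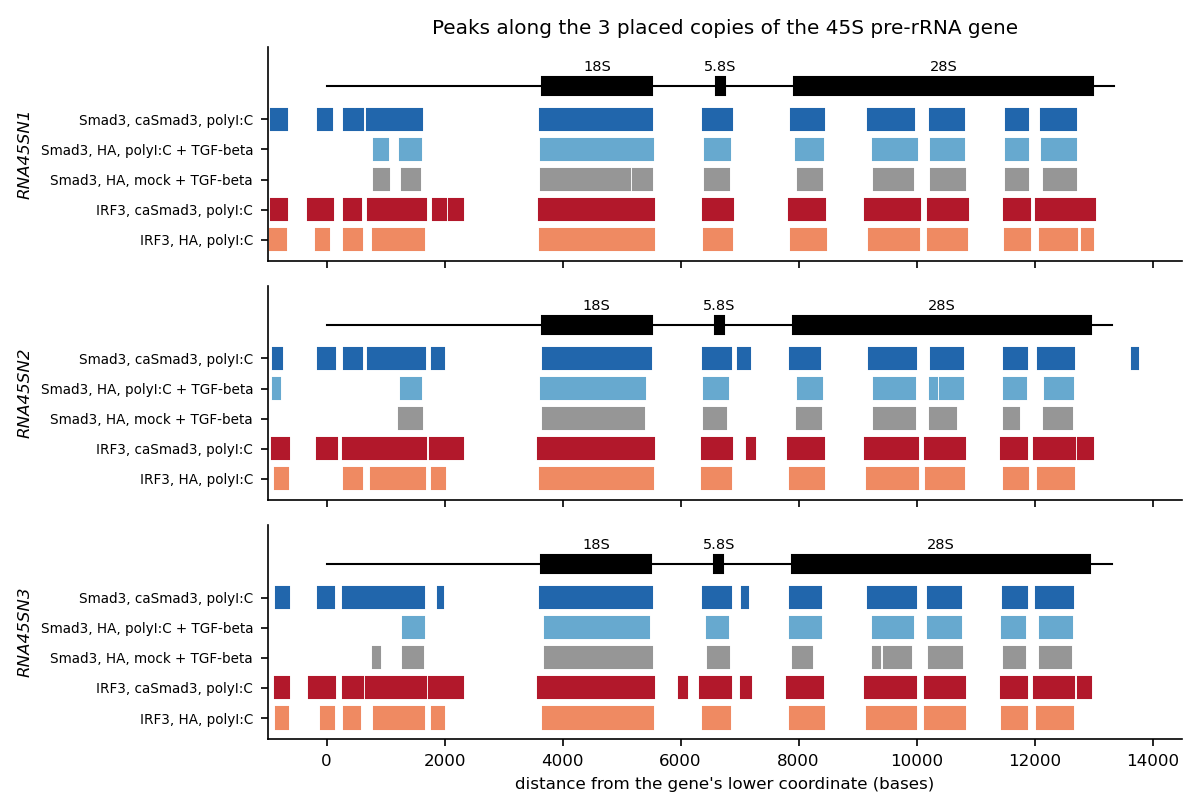
Peaks (coloured blocks, 1 row per library) along the 3 placed 45S gene copies, by distance in bases from the lower coordinate of the gene; black boxes mark 18S, 5.8S and 28S. The 18S and 5.8S parts are covered in every row and copy, and blocks before 18S are fewer in both rows of Smad3 in HA cells.

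Polymerase III genes gave a different picture. Of 429 tRNA genes, 21 had a peak within 1 kb for Smad3 in caSmad3 cells (4.90%), 3 in HA cells after polyI:C (0.699%) and 1 after mock transfection (0.233%), and 34 and 21 for IRF3 in caSmad3 and HA cells (7.93% and 4.90%). All of these shares lie below the protein-coding background given above, which counts peaks within 1 kb of whole genes. They lie above those of microRNA genes, except for Smad3 after mock transfection (0.233% against 0.261%). However, the exact interval of the tRNA share held the microRNA share in every library. In the HA libraries of Smad3 it also held the protein-coding share. Peaks overlapped a tRNA gene at 3 genes for Smad3 in caSmad3 cells (TRE-CTC1-4, TRG-TCC1-1 and TRT-TGT3-1, peaks of 180, 167 and 297 bases) and at 0 genes in every other library. Taken as 3 counts of the total, the limit that 0 of 429 allows is 0.699%.

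Most tRNA genes with a peak were neighbours of protein-coding genes. Of the 47 with a peak in any library, 27 had a protein-coding gene end within 1 kb (57.4%), against 55 of all 429 (12.8%). Among those 55, 18.2%, 3.64% and 1.82% had a peak for Smad3 and 41.8% and 23.6% for IRF3. Among the other 374, 2.94%, 0.267% and 0% had one for Smad3 and 2.94% and 2.14% for IRF3. The tRNA gene with the widest peaks, TRX-CAT1-2, had 629, 189 and 99 bases for Smad3 and 933 and 641 bases for IRF3, all at least 665 bases away from it. Those peaks lay within 1 kb of the histone gene H4C8 and were the 1 peak per library near a histone gene. TRR-TCG1-1, an arginine tRNA gene beside POLG, had 179 and 102 bases for Smad3 in caSmad3 cells and in HA cells after polyI:C, none after mock transfection, and 396 and 303 bases for IRF3. TRL-AAG2-4, a leucine tRNA gene beside POLR3E, a subunit gene of polymerase III, had peaks of 191 and 165 bases for IRF3 in caSmad3 and HA cells and none for Smad3.

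Among the other polymerase III genes, RN7SK is the gene of 7SK RNA, which holds the elongation factor P-TEFb inactive. Its 1 peak, of 183 bases and 318 bases away, overlapped an end of the protein-coding gene GSTA4. It was listed for IRF3 in caSmad3 cells and in no other library. RNU6ATAC (227 bases, 507 away) and RNU6-1 (272 bases, 279 away) likewise had a peak for IRF3 in caSmad3 cells alone. RNU6-2 had 99 bases for Smad3 in caSmad3 cells at 57 bases from the gene and 134 bases for IRF3 in caSmad3 cells at 316 bases. That IRF3 peak overlapped an end of the protein-coding gene TMEM259. Thus 1 of the 7 U6, U6atac and 7SK genes had a peak for Smad3 in caSmad3 cells, 4 for IRF3 in caSmad3 cells and 0 in the 3 HA libraries, and no peak overlapped any of them.

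Of 17 5S rRNA genes, all on chromosome 1, 1 had a peak for Smad3 in caSmad3 cells and 4 for IRF3 in caSmad3 cells (RNA5S4, RNA5S6, RNA5S10 and RNA5S13), with widths of 111 to 178 bases, and 0 had one in the 3 HA libraries. RN7SL1, a gene of 7SL RNA of the signal recognition particle, had 138 bases for Smad3 in caSmad3 cells and 416 and 423 bases for IRF3 in caSmad3 and HA cells, at 21 to 173 bases from the gene. RN7SL2 was overlapped by a Smad3 peak of 166 bases in caSmad3 cells and had an IRF3 peak of 158 bases at 110 bases in caSmad3 cells. RPPH1 had 2 peaks in each IRF3 library, the wider of 172 bases in caSmad3 cells and 262 bases in HA cells, and none for Smad3. RMRP had 161 bases for Smad3 and 202 bases for IRF3, both in caSmad3 cells and at 571 and 370 bases from the gene. An end of the protein-coding gene CCDC107 lay closer, at 298 and 97 bases from these peaks. RNY5, a Y RNA gene, had a peak of 120 bases for IRF3 in caSmad3 cells at 242 bases. VTRNA1-1 and the other vault RNA genes, RNY1 and RNY3, and the 28 snaR genes had none in any library. These classes hold few genes each, so their counts were not read against the protein-coding background.

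Taken over all classes, sharing of peaks between libraries was higher at the RNA genes than elsewhere in each pair compared, but the classes differed. A peak was shared when it had at least 1 base in common with a peak of the other library. For Smad3 in caSmad3 cells, 88 of 164 peaks at RNA genes were shared with HA cells after polyI:C (53.7%, against 9.56% of other peaks), and 93 of 93 the other way (100%, against 84.6%). For Smad3 in HA cells, 71 of 93 peaks after polyI:C were shared with mock transfection (76.3%, against 24.1%) and 74 of 76 the other way (97.4%, against 62.5%). For IRF3, 159 of 207 peaks in caSmad3 cells were shared with HA cells (76.8%, against 39.9%) and 166 of 172 the other way (96.5%, against 82.2%). In caSmad3 cells, 142 of 164 Smad3 peaks were shared with IRF3 (86.6%, against 30.1%), and 141 of 207 IRF3 peaks with Smad3 (68.1%, against 21.6%). In HA cells after polyI:C, 90 of 93 Smad3 peaks were shared with IRF3 (96.8%, against 22.4%), and 88 of 172 IRF3 peaks with Smad3 (51.2%, against 3.62%). Of the Smad3 peaks in caSmad3 cells, 25 of 37 at 45S genes and 29 of 34 at Pol II snRNA genes were shared with HA cells. Only 4 of 33 at other snoRNA genes were (exact interval 3.40% to 28.2%), and 3 of 15 at tRNA genes (4.33% to 48.1%). These 2 intervals hold the 9.56% of other peaks. For IRF3, however, 34 of 37 peaks at other snoRNA genes in caSmad3 cells were shared with HA cells. Lists of unequal length bound these shares, and pairs that share a library are not independent. When only peaks that overlap an RNA gene were kept, the shares of Smad3 in caSmad3 cells found in HA cells and of IRF3 found with Smad3 in HA cells came to 80.6% and 83.0%.

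**Figure D5:**
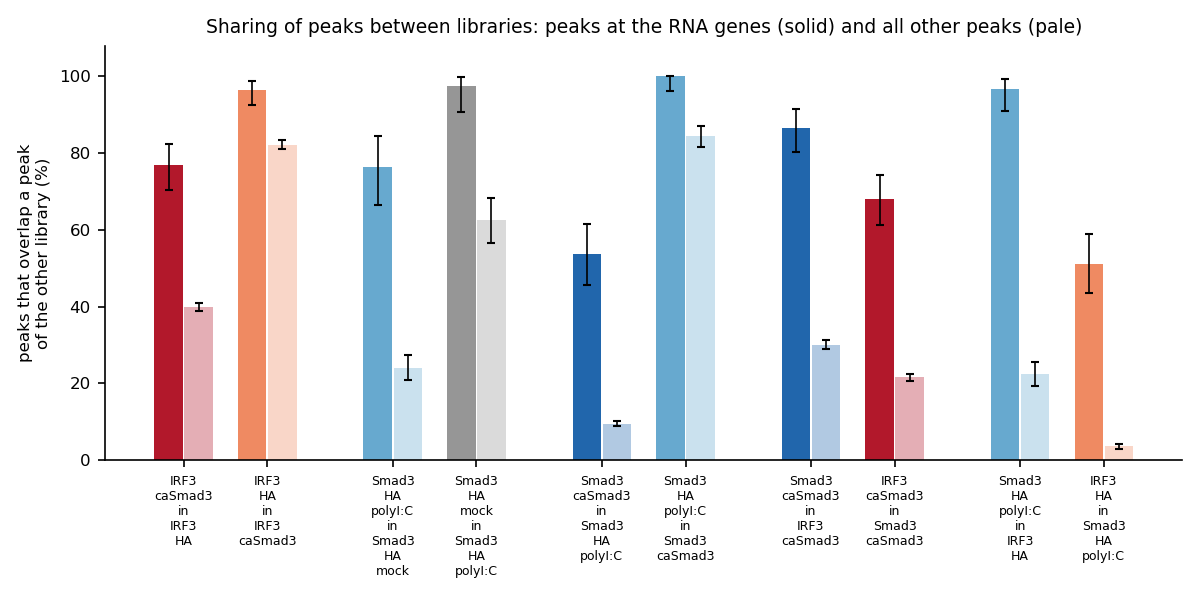
Percent of peaks of one library that overlap a peak of the other (vertical axis) for 5 pairs, each direction given under its bars; solid bars are peaks at the RNA genes, pale bars all other peaks, and error lines are exact 95% intervals for counting error. The solid bar is the higher of its pair in all 10 cases.

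The genes with a peak in 1 library of a pair alone fell into different classes from pair to pair. Class sizes bear on these counts: of the 1814 genes, 534 are other snoRNA genes, 429 tRNA genes and 35 Pol II snRNA genes. A peak can also count for several neighbouring genes. The shares of other peaks found in both libraries of each pair are given above. Between Smad3 in caSmad3 cells and in HA cells after polyI:C, 60 RNA genes had a peak in caSmad3 cells alone and 0 in HA cells alone. Of those 60, 32 were other snoRNA genes, 18 tRNA genes and 2 Pol II snRNA genes. The widest such peak was 461 bases near SNORD81.
Between polyI:C and mock transfection, 12 genes had a Smad3 peak after polyI:C alone and 1 after mock transfection alone, and 7 of the 12 were Pol II snRNA genes and 1 an unnamed snRNA gene. The widest peaks listed after polyI:C alone were at RNVU1-30 (563 bases), RNVU1-14 (380 bases) and RNU4ATAC (356 bases). The mock library is the shortest list, with 353 peaks, and the part of its depth in these absences was not tested.
For IRF3, 30 genes had a peak in caSmad3 cells alone and 4 in HA cells alone, and 14 of the 30 were tRNA genes. The widest peak in caSmad3 cells alone was 328 bases in RNA45SN2, and the widest in HA cells alone was 283 bases near RNVU1-4.
Between factors in caSmad3 cells, 21 genes had a peak of Smad3 alone and 50 of IRF3 alone. In HA cells after polyI:C, 1 gene had a peak of Smad3 alone (RNVU1-2A, 126 bases) and 64 of IRF3 alone, of which 38 were other snoRNA genes and 18 tRNA genes. At the widest of these, over SNORD104, IRF3 had 607 bases. The Smad3 library of this last pair had TGF-beta and the IRF3 library had none.

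The genes for the proteins that make these RNAs were read against the share of protein-coding genes with a peak within 1 kb of a gene end, which was 10.7%, 0.891% and 0.247% for Smad3 in caSmad3 cells, HA cells after polyI:C and HA cells after mock transfection, and 31.4% and 17.1% for IRF3 in caSmad3 and HA cells. Of 102 genes of 5 lists (polymerase I and III machinery, snRNA transcription and processing, snoRNP and RNase P proteins, and tRNA and 5S processing), 29, 1 and 0 had a peak for Smad3 and 77 and 48 for IRF3. The polymerase III list of 23 genes had 9, 1 and 0 for Smad3 and 20 and 12 for IRF3, and the polymerase I list of 15 had 2, 0 and 0 and 9 and 5. The 1 gene of the 102 with a peak for Smad3 in HA cells after polyI:C (0.980%, near the 0.891% of protein-coding genes) was MAF1, a repressor of polymerase III. MAF1 also had a peak for both factors in caSmad3 cells. SNAPC3, a subunit of the complex that binds the proximal sequence element, HEXIM1 and MEPCE, proteins of the 7SK particle, and BRF2, a polymerase III initiation factor, had a peak for Smad3 in caSmad3 cells and for IRF3 in both cell types. Their partners differed. Among the other subunits of the SNAPC3 complex, SNAPC1 had a peak for IRF3 alone, and SNAPC2, SNAPC4 and SNAPC5 had none in any library. LARP7, also of the 7SK particle, had a peak for IRF3 in caSmad3 cells alone. These counts are descriptions. With the wider 50% of each list alone, the counts were 16 for Smad3 in caSmad3 cells, 0 in HA cells after polyI:C and 29 for IRF3 in HA cells.

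Motif letters were counted, on both strands, in the promoter windows of neighbours (250 bases before to 50 after a start) that lay under a peak near an RNA gene. Near Pol II snRNA, U3, U8 or U13 genes there were 7 such windows of 5 neighbours, a number too small for any share to be read. The proximal sequence element core was in 3 of the 7 and the octamer in 2, against 9.65% and 1.76% of 34796 distinct windows in the whole table. GAAANNGAA, the core of IRF sites, was in 0 of the 7 (8.11% of all windows), as were GTCTAGAC (0.193%) and GGCGCC (19.2%), both known Smad motifs, TGANTCA of AP-1 (7.73%) and ACTACAA of ZNF143 (2.75%). In 33 distinct windows near other snoRNA genes, GAAANNGAA was in 6 (18.2%), TATAAA in 9 (27.3%, against 11.6% of all windows) and TATATA in 7 (21.2%, against 4.01%), and the proximal sequence element core in 5 (15.2%). In 24 windows near tRNA genes, GAAANNGAA was in 0, GGCGCC in 6 (25.0%) and TATAAA in 3 (12.5%), and the proximal sequence element core in 6 (25.0%). Windows of neighbours are not the promoters of the RNA genes, and several overlap each other.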

How the data were processed

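The 5 peak lists were deposited by the authors, 1 for each sample, with a chromosome, start, end and name for each peak, so the deposited values are positions in bases with no score. The submitters' processing notes name hg38, Bowtie2 2.2.2.6 and MACS2 2.1.0, and the sources used here do not give thresholds, input control or duplicate removal. Sequencing depth is unknown, so a list's length is no measure of binding.

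Genes came from a RefSeq table (GRCh38.p14). Of 1889 genes of the 9 biotypes, 1814 on assembled chromosomes were used, and 24 mitochondrial and 51 scaffold genes were not. A peak counted for the nearest gene, and a gene counted when any peak lay within 1000 bases. Polymerases were assigned by RNA class, with snaR under III and U3, U8 and U13 set apart from other snoRNAs. The named genes were those with a peak in at least 4 libraries, the 5 widest peaks of a library, the 3 widest unshared of a pair and a fixed list, and other genes named were chosen after their values were seen. Each group holds 1 library, so no test was made. Shares carry exact Clopper-Pearson 95% intervals, for counting error only. The distance and overlap search was tested on simulated data. The motif count used windows of neighbouring genes in place of those of the RNA genes. Members, lists and classes were chosen with earlier results of these data known. Python 3.11.15, pandas 2.3.3, numpy 2.4.6, scipy 1.17.1 and matplotlib 3.10.9 were used.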

Additional observations from a re-analysis of the deposited data

How the results depend on the processing

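Counts depended on the distance that joins a peak to a gene. With overlap of the gene required, peaks at RNA genes numbered 93 for Smad3 in caSmad3 cells and 97 and 88 for IRF3 in caSmad3 and HA cells, and genes 71, 71 and 68 in that order. Within 200 bases they were 123 peaks and 96 genes for IRF3 in caSmad3 cells and 104 peaks and 82 genes in HA cells. Within 10 kb they were 295 peaks and 326 genes for Smad3 in caSmad3 cells, 106 genes in HA cells after polyI:C, and 420 and 303 peaks with 438 and 347 genes for IRF3 in caSmad3 and HA cells. Without peaks near a protein-coding gene end, the genes numbered 84 for Smad3 in caSmad3 cells and 92 and 78 for IRF3. The share of Smad3 peaks of caSmad3 cells found in HA cells was 80.6% with overlap required and 34.6% within 10 kb. The share of IRF3 peaks of HA cells found with Smad3 was 83.0% and 32.3%. Among the wider 50% of peaks, genes of the protein lists numbered 16 for Smad3 in caSmad3 cells, 0 in HA cells after polyI:C and 29 for IRF3 in HA cells. Histone neighbours, loci in place of genes, and stricter rules of sharing moved no such total by over 1.5 times, and loci gave no value for a count of peaks. Peak width served as the stricter threshold because the files give no score. No paired analysis was possible because each group holds 1 library and no test was made.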
